A study of Mus musculus with 12 samples.

Results

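MAPK feedback genes are the targets and regulators through which a cell answers to, and reins in, its own ERK signalling. The set described here holds 10 of them, taken by gene symbol from a table of 46095 genes: the phosphatases Dusp4 and Dusp6, the inhibitors Spry2, Spry4 and Spred1, the transcription factors Etv4 and Etv5, the ERK target Phlda1, the receptor Egfr and its ligand Hbegf. All 10 were found and all 10 were among the 14666 genes with enough counts to be tested. They were measured by RNA sequencing of hepatocellular carcinomas that the carcinogen diethylnitrosamine had induced in mouse liver, in 7 Pck1-null libraries (KO) and 5 wild-type libraries (WT). Both genotypes received the carcinogen, and the labels give no untreated liver, no age, sex or strain, and no description of the Pck1 allele. Pck1 encodes the cytosolic phosphoenolpyruvate carboxykinase of gluconeogenesis.

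A growth factor such as HB-EGF binds a receptor tyrosine kinase such as EGFR, which switches on RAS and then the kinases RAF, MEK and ERK. Active ERK raises the transcription of its own brakes, among them dual-specificity phosphatases and Sprouty and Spred proteins, so that the transcripts of these genes are widely used as a readout of the pathway. In mouse liver tumours, activating mutations of Hras or Braf and activating mutations of the beta-catenin gene are known to occur mostly in separate tumours, and tumours with mutant beta-catenin are rich in glutamine synthetase, the product of Glul. Mutations were not analysed here, and the question put to the counts is whether the feedback genes ran opposite to Glul from tumour to tumour, and whether they differed between genotypes.

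Levels are given in CPM, counts scaled by library size after TMM scaling, which corrects for differences in composition. The 7 shallower libraries, 4 KO and 3 WT, held 17462102 to 23663506 counts each. The 5 deeper ones, 3 KO and 2 WT, held 43071365 to 46747125. Pck1 had a lowest, median and highest level of 111, 219 and 1167 CPM in KO, against 1063 to 5822 CPM in WT, so that KO replicate 3 lay above WT replicate 4. Xist, which the silenced X chromosome transcribes, was above 10 CPM in 5 of 7 KO and 1 of 5 WT libraries. Genotype and Xist class were thus not balanced. The hepatocyte markers Alb, Apoa1, Apoa2, Ttr, Serpina1a, Fgb, Hnf4a and Tat summed to 55805 to 138660 CPM in KO and 55137 to 187433 CPM in WT. In these bulk samples fewer cells of a type and less RNA per cell cannot be told apart.

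Dusp6 and Dusp4 encode phosphatases that remove phosphate from ERK, the first in the cytoplasm and the second in the nucleus. Dusp6, on chromosome 10 from 99263231 to 99267489 (GRCm38.p6), had a lowest, median and highest level of 48.8, 110 and 240 CPM in KO, against 207, 49.9, 97.4, 146 and 82.4 CPM in WT replicates 1 to 5. The groups overlapped over nearly their whole ranges, and the high libraries were KO replicates 1 to 3 and WT replicates 1 and 4. Its fitted log2 fold change, KO over WT, was 0.13 ± 0.43 (SE), with an adjusted p of 0.911 in edgeR's quasi-likelihood test over all genes tested. The difference of mean log2 CPM was 0.19 among shallower libraries and 0.017 among deeper ones.

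Dusp4, on chromosome 8 from 34807610 to 34819894, stood at 5.41, 29.0 and 32.3 CPM in KO (lowest, median and highest) and at 27.2, 4.77, 11.8, 36.2 and 12.5 CPM in WT replicates 1 to 5. Of the KO libraries, 6 lay between 21.3 and 32.3 CPM, and replicate 6 lay alone at the bottom. The log2 fold change was 0.39 ± 0.49 (SE), with an edgeR adjusted p of 0.725, and the difference was 0.42 among shallower libraries and 0.81 among deeper ones. It was 0.14 without WT replicate 2 and 0.79 without WT replicate 4 as a fitted log2 fold change, and 1.19 with limma-voom, and passed in none of these.

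Spry2, Spry4 and Spred1 encode membrane-bound inhibitors that block the step from receptors to RAS and RAF. Spred1, on chromosome 2 from 117121071 to 117182279, had 22, 38.6 and 49.3 CPM in KO (lowest, median and highest) and 53.5, 16.6, 28.1, 25.1 and 22.5 CPM in WT replicates 1 to 5. The highest library of all 12 was WT replicate 1, while the other 4 WT libraries lay below 6 of the 7 KO libraries. Between genotypes Spred1 had a log2 fold change of 0.44 ± 0.28 (SE) and an edgeR adjusted p of 0.476. Limma-voom with sample weights was the one alternative that called Spred1, higher in KO with an adjusted p of 0.0284, in a fit that called 14.6% of all genes tested. The difference was 0.42 among shallower libraries and 0.67 among deeper ones, and by an exact permutation test over all libraries p was 0.114.

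Spry4, on chromosome 18 from 38586247 to 38601347, was at 6.57, 13.8 and 21.9 CPM in KO (lowest, median and highest) and at 23.0, 8.78, 31.3, 17.5 and 20.5 CPM in WT replicates 1 to 5. WT replicate 2 lay low among the WT libraries, which otherwise overlapped only with KO replicate 2. For Spry4 this gave a log2 fold change of -0.62 ± 0.32 (SE), with an edgeR adjusted p of 0.396. The difference was -0.81 among shallower libraries and -0.27 among deeper ones.

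Spry2, on chromosome 14 from 105891947 to 105896819, had low counts, from 28 to 270 per library. Its levels were 1.33, 3.06 and 4.82 CPM in KO (lowest, median and highest), against 6.29, 2.58, 5.76, 2.39 and 4.48 CPM in WT replicates 1 to 5. The log2 fold change was -0.45 ± 0.39 (SE), the edgeR adjusted p was 0.599, and the difference was -0.60 among shallower libraries and -0.32 among deeper ones. Spry2 and Spry4 thus had negative values and Spred1 a positive one, and none of the 3 passed in edgeR.

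Etv4 and Etv5 are ETS transcription factors of the PEA3 group that ERK signalling induces. Etv5, on chromosome 16 from 22381313 to 22439570, stood at 11, 14.3 and 26.0 CPM in KO (lowest, median and highest) and at 15.7, 8.65, 14.1, 6.30 and 9.33 CPM in WT replicates 1 to 5. KO replicates 1, 3 and 5 lay above all WT libraries, and the remaining 4 KO libraries lay within the WT range. The log2 fold change of 0.59 ± 0.27 (SE) had an unadjusted p of 0.0531 and an adjusted p of 0.345 in edgeR, and an exact permutation p of 0.0669. The difference was 0.53 among shallower libraries and 0.70 among deeper ones.

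Etv4, on chromosome 11 from 101769747 to 101785310, was the least abundant member and the most variable, with counts from 2 in KO replicate 1 to 268 in KO replicate 5. Its levels were 0.0837, 2.17 and 6.71 CPM in KO (lowest, median and highest) and 2.67, 0.228, 2.46, 0.954 and 0.679 CPM in WT replicates 1 to 5. KO replicates 4, 5 and 7 lay above all WT libraries and KO replicate 1 below them. Etv4 had a log2 fold change of 1.12 ± 0.84 (SE), with an edgeR adjusted p of 0.542, and the difference was -0.55 among shallower libraries and 2.65 among deeper ones.

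Phlda1 encodes a pleckstrin-homology-like protein that ERK signalling raises. The gene lies on chromosome 10 from 111506286 to 111508649, and its exons overlap those of Gm28592 on the opposite strand, from which its reads cannot be told apart, since the counting strand is not given in the sources used here. Phlda1 had 175, 211 and 105 CPM in KO replicates 1, 2 and 3 and 32.5, 23.5, 24.7 and 33.1 CPM in KO replicates 4 to 7, against 72.2, 34.8, 30.3, 28.4 and 30.6 CPM in WT replicates 1 to 5. KO replicates 1 to 3 were above every other library, WT replicate 1 came next, and the remaining 8 libraries lay between 23.5 and 34.8 CPM. The log2 fold change between genotypes was 1.14 ± 0.61 (SE), with an edgeR adjusted p of 0.405. It was 0.38 with Xist class as a term, and the difference of mean log2 CPM was 1.43 among shallower libraries and -0.29 among deeper ones.

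Egfr encodes the epidermal growth factor receptor, which normal hepatocytes carry at high levels. On chromosome 11 from 16752203 to 16913907, it had 90.4, 225 and 367 CPM in KO (lowest, median and highest) and 340, 283, 394, 70.9 and 297 CPM in WT replicates 1 to 5. WT replicate 4 and KO replicate 1 stood low, and the other 10 libraries lay between 192 and 394 CPM. Egfr had a log2 fold change of -0.22 ± 0.39 (SE), with an edgeR adjusted p of 0.821, and the difference was -0.15 among shallower libraries and -0.13 among deeper ones.

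Hbegf encodes heparin-binding EGF-like growth factor, a ligand of EGFR that is shed from the cell membrane. On chromosome 18 from 36504927 to 36515805, it was at 1.63, 2.58 and 3.37 CPM in KO replicates 1, 2 and 3 and at 7.20, 9.71, 6.49 and 12.1 CPM in KO replicates 4 to 7, against 5.92, 2.71, 5.55, 5.34 and 10.4 CPM in WT replicates 1 to 5. The KO libraries with high Phlda1 were those with low Hbegf. The log2 fold change between genotypes was 0.0427 ± 0.48 (SE), with an edgeR adjusted p of 0.974, while the difference of mean log2 CPM was -0.13, or -0.61 among shallower libraries and 0.52 among deeper ones.

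**Figure D1:**
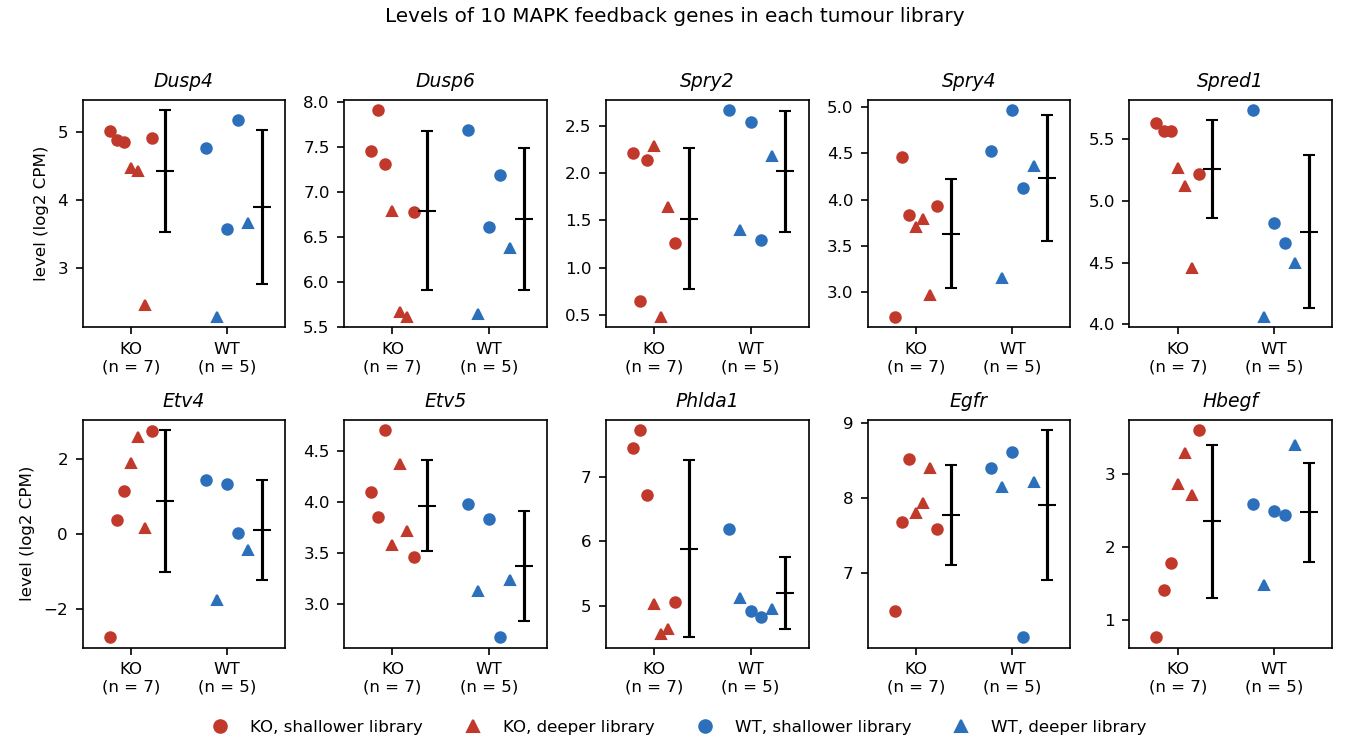
Level of each of the 10 MAPK feedback genes (vertical axis, log2 CPM) in the 7 KO and 5 WT tumour libraries. Circles are shallower and triangles deeper libraries, and the black dash with bars is the group mean ± SD. KO and WT overlap for every gene, and Phlda1 is high in 3 KO libraries and 1 WT library.

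Against genotype, then, none of the 10 genes passed in edgeR. Of 10 members, 0 had an adjusted p under 0.05 in edgeR, where 0% of 14666 genes did. Pck1 did not pass there either, with a log2 fold change of -3.28 ± 0.67 (SE) and an edgeR adjusted p of 0.17. DESeq2 gave Pck1 an adjusted p of 0.000123. The lack of calls in edgeR thus does not show that levels were equal. At an unadjusted p under 0.05, 0 members were called in edgeR, against 14.7% of all genes tested. DESeq2 also called 0 members, against 3.41% of 14342 genes with an adjusted p. KO and WT did not overlap in 0 members, against 1.21% of all genes tested. The fitted log2 fold change was positive for 7 members and negative for 3 (53.7% of all genes were positive), with a median of 0.26 over the members and 0.0336 over all genes tested. The standard errors of the 10 log2 fold changes ran from 0.27 to 0.84. With Xist class as a further term, the log2 fold change was -0.15 for Spry2, 1.55 for Etv4, 0.38 for Phlda1 and 0.33 for Hbegf. For Glul it was 2.75 without that term and 0.31 with it, and 0 members passed with it.

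**Figure D2:**
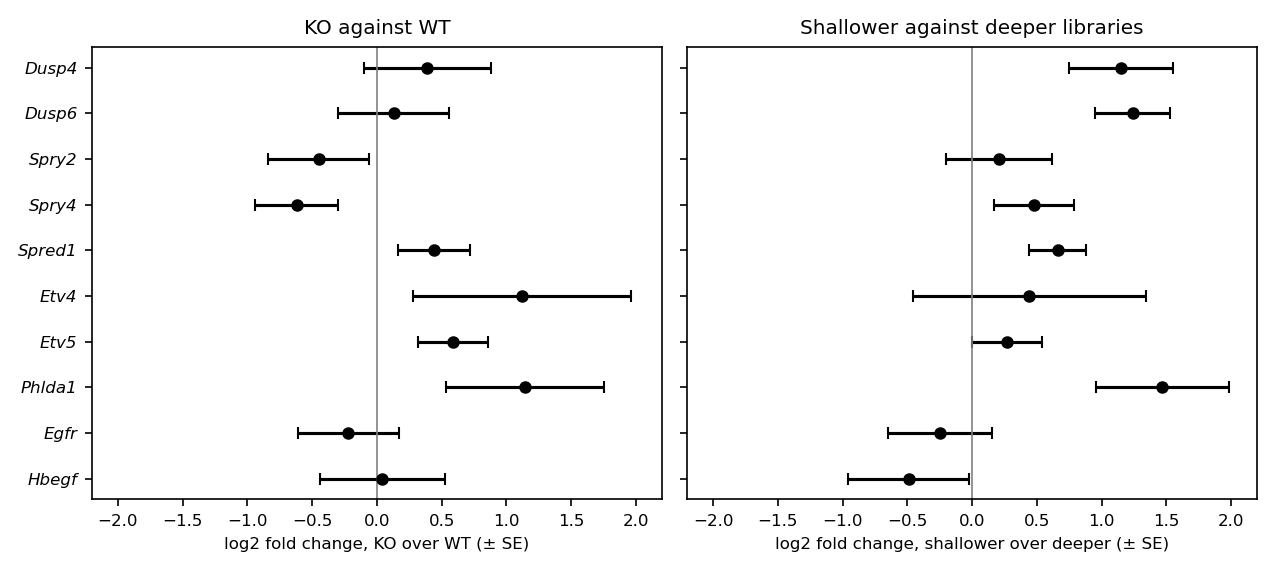
Fitted log2 fold changes of the 10 genes with their standard errors (horizontal axes), KO over WT on the left and shallower over deeper libraries on the right. On the left the values run from -0.62 for Spry4 to 1.14 for Phlda1. Etv5 lies more than 2 standard errors above 0 there, with an edgeR unadjusted p of 0.0531. On the right Dusp4, Dusp6, Spred1 and Phlda1 lie more than 2 standard errors above 0.

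Some members had higher levels in the shallower libraries, and none passed the adjusted test. In a fit with genotype and depth class, the log2 difference of shallower over deeper libraries was 1.24 ± 0.29 (SE) for Dusp6, 1.15 ± 0.40 for Dusp4, 1.47 ± 0.51 for Phlda1 and 0.66 ± 0.22 for Spred1. These 4 had an unadjusted p under 0.05 with the shallower libraries higher, as 8.05% of all genes did, and 0 members passed after adjustment, against 0.695% of all genes (edgeR adjusted p from 0.0886 for Dusp6 upwards). Glul itself had 3.21 ± 1.33 in that fit (edgeR unadjusted p = 0.0332, adjusted p = 0.314). Its levels were 116 to 15902 CPM in the shallower and 31.7 to 652 CPM in the deeper libraries. Depth class and Glul thus went together in part, with ranges that overlapped. The labels do not say what the depth classes stand for.

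Set per kilobase of exon so that genes can be compared, the mean levels over the 12 libraries on the log2 CPM per kilobase scale were 5.10 ± 0.80 for Dusp6, 4.45 ± 1.12 for Phlda1 and 4.34 ± 0.78 for Egfr (SD, n = 12). Dusp4 had 2.75 ± 1.0, Spred1 2.29 ± 0.55, Etv5 1.67 ± 0.56 and Spry4 1.62 ± 0.68. At the low end were Spry2 with 0.63 ± 0.74, Hbegf with 0.11 ± 0.89 and Etv4 with -1.21 ± 1.86. Dusp6, Phlda1 and Egfr lay within the SD of one another, as did Etv5 and Spry4, while the steps from Egfr to Dusp4 and from Spry4 to Spry2 were larger than the SDs on either side.

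Glul spanned the libraries widely, at 15902, 9407 and 11642 CPM in KO replicates 1, 2 and 3 and 555, 31.7, 383 and 448 CPM in KO replicates 4 to 7, against 2764, 652, 116, 284 and 264 CPM in WT replicates 1 to 5. The largest gap between neighbouring libraries was 2.08 of a whole range of 8.97 on the log2 scale, so the libraries were not treated as separate clusters. The beta-catenin feedback genes Axin2, Lgr5, Nkd1, Notum, Znrf3, Rnf43, Sp5 and Tbx3 all correlated positively with Glul, and 7 of the 8 passed after adjustment over all genes, with Nkd1 at r = 0.94 and Znrf3, which did not pass, at r = 0.75.

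Over all 12 libraries, the 10 members did not run opposite to Glul as a set. Pearson's r of log2 CPM with Glul over 12 libraries was positive for 6 members and negative for 4 (51.0% of 14665 genes were negative), with a median of 0.29 over the members and -0.0113 over all genes tested. At an unadjusted permutation p under 0.05, 3 members were positive (8.77% of all genes) and 1 was negative (9.23%). After Benjamini-Hochberg adjustment over all genes, 1 member passed, Phlda1, which ran with Glul and not against it. Of all genes, 1.54% passed as positive and 1.30% as negative. The positive majority depended on the libraries with the most Glul. In the 8 libraries with the least Glul, r was negative for Dusp4 (-0.24), Spred1 (-0.31) and Etv5 (-0.68). It kept its sign for the other members, and it was computed there for the members only, so no share of all genes is given.

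Phlda1 had r = 0.92 with Glul (permutation p = 6e-05, adjusted p = 0.0133, n = 12) and Spearman's rho = 0.91 (permutation p = 0.00014, adjusted p = 0.0555). Only 33 genes, Phlda1 included, had an r that high. Without the 2 libraries farthest from the Glul median, KO replicates 1 and 3, r was 0.87 (permutation p = 0.00057, adjusted p = 0.147), and with any 1 library left out r stayed between 0.89 and 0.94. Within the 7 KO libraries r was 0.92 (exact permutation p = 0.00476, adjusted p = 0.125), and within the 7 shallower libraries 0.94 (exact permutation p = 0.00714, adjusted p = 0.279). No r was computed within the 5 WT or the 5 deeper libraries, since r is given here only over at least 6 libraries. With depth class means subtracted r was 0.89 (permutation adjusted p = 0.0205), and against the mean of the 8 beta-catenin feedback genes in place of Glul it was 0.90 (permutation adjusted p = 0.00917). The 4 libraries with the most Glul carried much of the range: in the other 8, where Phlda1 spans a narrow range, r was 0.69 (exact permutation p = 0.0514).

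Dusp6 and Spred1 also had positive values, of which neither passed after adjustment. Dusp6 had r = 0.72 (permutation p = 0.00797, adjusted p = 0.118) and rho = 0.66 (permutation p = 0.0231, adjusted p = 0.324). Its r was 0.70 without KO replicates 1 and 3, 0.87 within KO, 0.78 within the shallower libraries and 0.60 with depth class means subtracted, but 0.22 in the 8 libraries with the least Glul. Spred1 had r = 0.60 (permutation p = 0.0414, adjusted p = 0.254) and rho = 0.63 (permutation p = 0.0328, adjusted p = 0.356). Without KO replicates 1 and 3 it had 0.43, and in the 8 libraries with the least Glul -0.31.

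Hbegf was the member that ran most against Glul, with r = -0.74 (permutation p = 0.00607, adjusted p = 0.105) and rho = -0.66 (permutation p = 0.0236, adjusted p = 0.324). Its r was -0.88 within KO (exact permutation p = 0.0175, adjusted p = 0.178) and -0.74 within the shallower libraries (exact permutation p = 0.0556, adjusted p = 0.444). Without KO replicates 1 and 3 it was -0.58, and in the 8 libraries with the least Glul -0.33. Etv4 had r = -0.42 (permutation p = 0.168, adjusted p = 0.484) and rho = -0.29 (permutation p = 0.354, adjusted p = 0.749), with -0.26 without KO replicates 1 and 3, and -0.68 within KO (exact permutation p = 0.0798).

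The other 5 members had values between -0.22 and 0.37 with a permutation p of at least 0.234. Dusp4 had r = 0.37 and rho = 0.40, Etv5 had 0.34 and 0.34, Spry2 had 0.24 and 0.19, Spry4 had -0.22 and -0.27, and Egfr had -0.16 and -0.17. Without KO replicates 1 and 3 their r was 0.20, -0.0683, 0.0594, 0.13 and -0.0177 in the same order. The permutation p of rho was 0.200, 0.276, 0.561, 0.403 and 0.604 in that order, and the adjusted p of r and of rho lay at 0.558 or above for all 5.

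**Figure D3:**
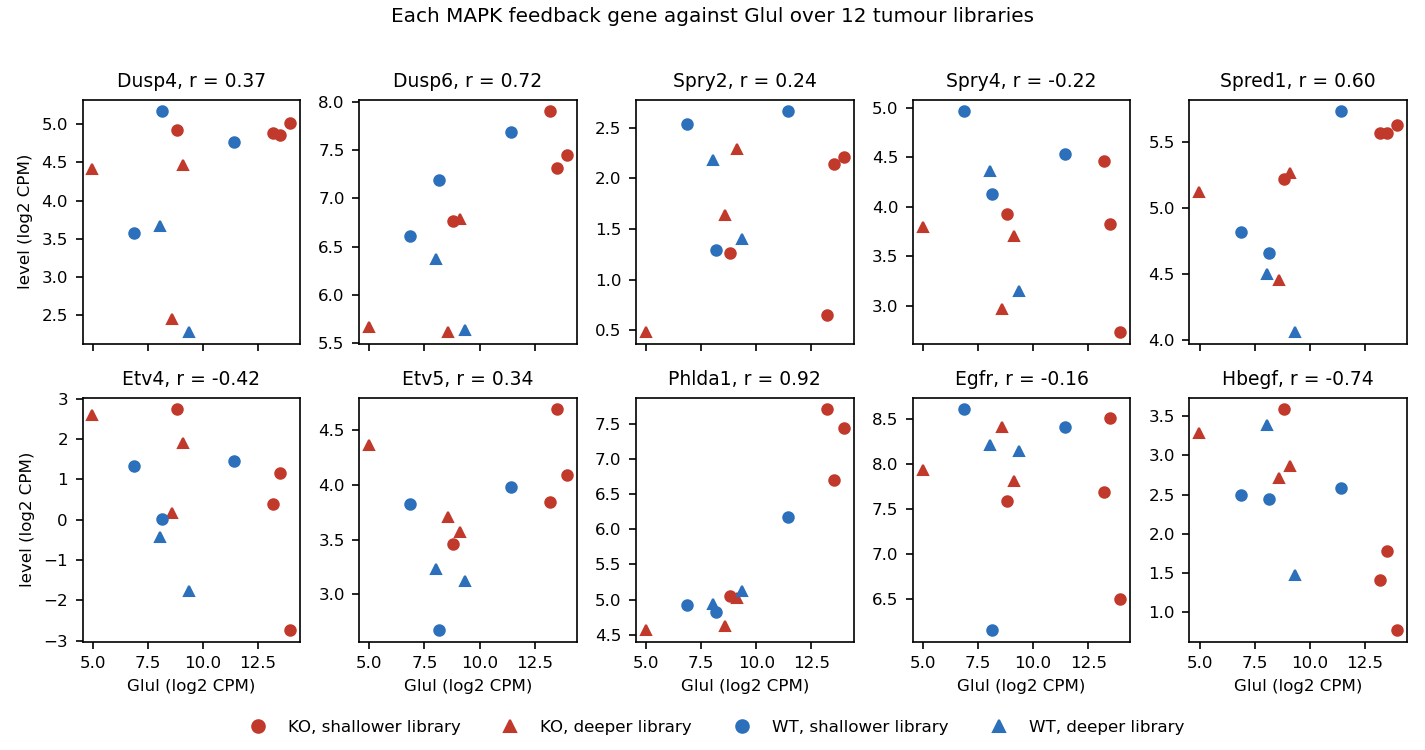
Each MAPK feedback gene (vertical axes, log2 CPM) against Glul (horizontal axes, log2 CPM) over 12 libraries, KO in red and WT in blue, circles for shallower and triangles for deeper libraries. Phlda1 is highest in the 4 libraries with the most Glul and spans 23.5 to 34.8 CPM in the other 8. Hbegf is low in 3 of those 4, and Egfr has r = -0.16 (permutation p = 0.629).

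A count model with genotype and Glul as terms gave the slope of each gene per unit of log2 Glul. Phlda1 rose by 0.36 ± 0.0499 (SE) per unit (edgeR adjusted p = 0.00380). Dusp6 rose by 0.22 ± 0.0584 with an edgeR adjusted p = 0.0495, which became 0.313 with depth class, 0.0765 with Xist class and 0.0512 with RLE scaling. Hbegf had a slope of -0.25 ± 0.0738 (edgeR adjusted p = 0.0819) and did not pass. These 2 of 10 members were called against 2.26% of all genes with a positive and 2.78% with a negative slope. Phlda1 kept an edgeR adjusted p of 0.0444 with depth class as a further term. The slopes of KO and WT were not found to differ for any member (edgeR adjusted p of the interaction from 0.961), nor for any other gene, with 0 past an adjusted and 741 past an unadjusted p under 0.05.

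**Figure D4:**
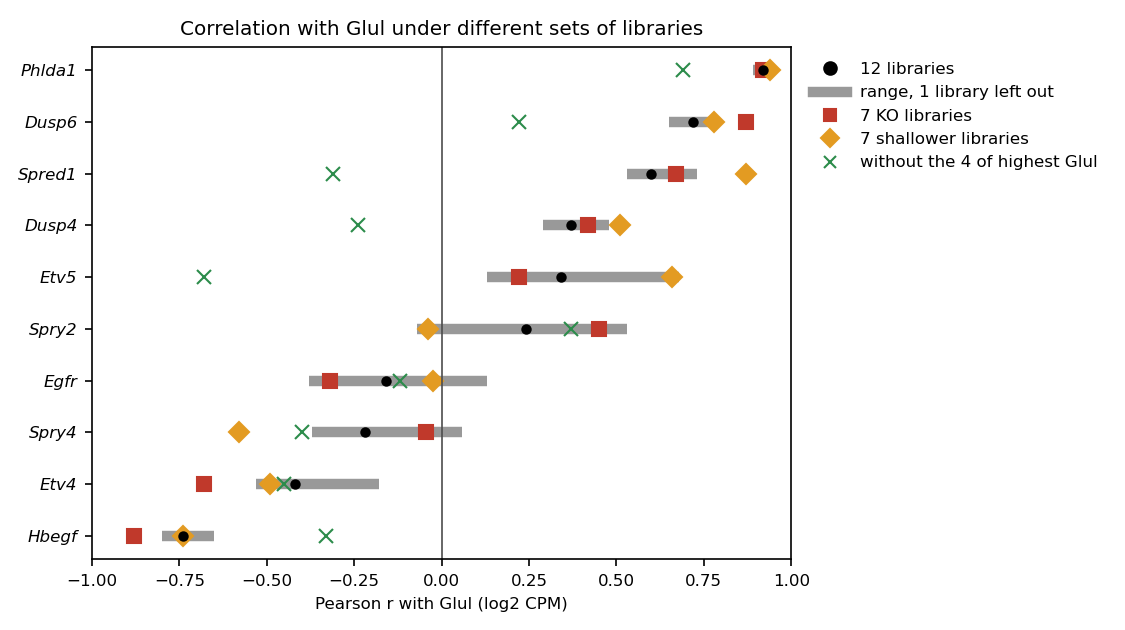
Pearson r of each gene with Glul (horizontal axis) over all 12 libraries (black), within KO (red), within the shallower libraries (orange) and without the 4 libraries of highest Glul (green cross), with the range over leaving out 1 library as a grey bar. Phlda1 stays positive in every set, from 0.69 to 0.94, and Hbegf stays negative, from -0.33 to -0.88.

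Among themselves the members split rather than moving as a block. Of 45 pairs, 29 had a positive r over the 12 libraries, with a median of 0.24, given here as a description with no test. The highest values joined Dusp4, Dusp6, Spred1 and Phlda1, with r = 0.79 for Dusp4 and Dusp6 (rho = 0.76), 0.79 for Dusp4 and Spred1 (rho = 0.61), and 0.77 for Dusp6 with both Spred1 (rho = 0.85) and Phlda1 (rho = 0.73). Dusp4 and Phlda1 stood further apart, with r = 0.48 (rho = 0.39, and 0.34 among shallower libraries), below Spred1 and Etv5 with r = 0.66 (rho = 0.69). Etv4 and Hbegf formed another pair, with r = 0.72 (rho = 0.62). Phlda1 and Hbegf had the lowest value, r = -0.75 (rho = -0.61). Within the 7 shallower libraries r was 0.54 for Dusp4 and Dusp6, 0.33 for Dusp4 and Spred1, 0.69 for Dusp6 and Spred1, and 0.80 for Dusp6 and Phlda1. There it was 0.86 for Etv4 and Hbegf and -0.82 for Phlda1 and Hbegf.

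The bases upstream of the transcription start are shown for Dusp6 and Spred1, a pair with a high r, and for the receptor gene Egfr. These are the 3 members where the ETS motif CGGAA was found. They are RefSeq promoter sequences of GRCm38.p6, where 5 of the 10 members matched an entry (Dusp6, Spry2, Spred1, Etv5 and Egfr), and each spans 250 bases, at chr10:99262981-99263230, chr2:117120821-117121070 and chr11:16751953-16752202, all on the plus strand. Capitals mark CGGAA on either strand, a longer form of the ETS core GGAA.
Dusp6: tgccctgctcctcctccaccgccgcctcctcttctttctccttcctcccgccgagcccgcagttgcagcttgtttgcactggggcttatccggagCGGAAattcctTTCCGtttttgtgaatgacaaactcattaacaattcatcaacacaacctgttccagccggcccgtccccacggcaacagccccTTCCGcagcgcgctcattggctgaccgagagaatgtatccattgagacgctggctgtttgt
Spred1: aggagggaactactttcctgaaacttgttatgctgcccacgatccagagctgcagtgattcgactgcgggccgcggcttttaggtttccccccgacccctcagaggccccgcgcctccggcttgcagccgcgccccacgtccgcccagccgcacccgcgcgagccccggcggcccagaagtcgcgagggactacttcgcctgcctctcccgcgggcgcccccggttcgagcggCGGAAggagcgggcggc
Egfr: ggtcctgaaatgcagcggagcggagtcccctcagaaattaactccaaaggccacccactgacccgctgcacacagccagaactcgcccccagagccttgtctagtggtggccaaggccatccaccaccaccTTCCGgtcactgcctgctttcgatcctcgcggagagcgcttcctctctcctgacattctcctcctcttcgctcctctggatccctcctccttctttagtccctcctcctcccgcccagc
CGGAA stands 3 times in the Dusp6 window, and 1 time each in those of Spred1 and Egfr. The windows of Spry2 and Etv5 held 0, so that 3 of the 5 members with an entry had CGGAA. It is found in 25.2% of 32851 promoter windows of the same length. The shorter GGAA was not counted, and it does occur in the window of Spry2 and in a window of Etv5. The AP-1 site TGANTCA (6.75% of windows), the CRE TGACGTCA (1.55%) and the TCF/LEF core CTTTGA (13.8%), searched on both strands, were in none of the windows of these 5 members. No match of CGGAA overlapped another of the motifs searched, since no other matched, and a match is a description and not a binding site.

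The rest of the pathway was read from lists of its other genes. None of these passed in edgeR's comparison of KO with WT, where 0% of all 14666 genes did. Of 15 other ERK phosphatases and feedback inhibitors tested, 9 had a positive and 6 a negative log2 fold change, and an unadjusted p under 0.05 was reached by 4 with a positive and 0 with a negative value (7.25% of all genes were higher and 7.44% lower). These were Spred2, a relative of Spred1, at 0.70 ± 0.21 (SE), Dusp9 at 1.89 ± 0.59, Rasa2, a GTPase activator for RAS, at 0.99 ± 0.31, and Il17rd, an inhibitor of fibroblast growth factor signalling, at 1.80 ± 0.81, with edgeR adjusted p from 0.214 to 0.333. Spred2 had a lowest, median and highest level of 24.6, 32.3 and 50.8 CPM in KO, against 13.0, 21.3 and 29.9 CPM in WT, and 6 of 7 KO libraries lay above all WT libraries.

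Of 17 other ERK target genes tested, 13 had a positive and 4 a negative log2 fold change. At an unadjusted p under 0.05 in edgeR 1 of the 17 was higher, against 7.25% of all genes. This was the AP-1 component Fosl1 at 1.92 ± 0.84 (SE, edgeR adjusted p = 0.321). Fosl1 was a low-count gene, with 1 to 146 counts. Ccnd1, the cyclin that drives entry into the cell cycle, was at 0.67 ± 0.45. Of 8 EGFR family receptors and ligands tested, 7 were positive, and 2 were higher at an unadjusted p under 0.05 in edgeR (7.25% of all genes). These were the ligand Btc (betacellulin) at 1.52 ± 0.52 and the sheddase Adam10 at 0.48 ± 0.19, with edgeR adjusted p of 0.246 and 0.293. Btc had 5.02, 23.2 and 55.8 CPM in KO (lowest, median and highest) and 4.08, 10.4 and 12.7 CPM in WT, with 6 of 7 KO libraries above all WT libraries. Tgfa, another ligand of EGFR, was at 0.80 ± 0.43.

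Of 22 genes of the RAS, RAF, MEK and ERK cascade tested, 14 were positive and 8 negative. At an unadjusted p under 0.05 in edgeR 1 of the 22 was higher, against 7.25% of all genes. This was Braf, a RAF kinase, at 0.44 ± 0.19 (SE, edgeR adjusted p = 0.319), with 4 of 7 KO libraries above all WT libraries. Of 12 other receptor tyrosine kinases 3 were positive and 9 negative. Of these, 0 had an unadjusted p under 0.05 in edgeR, against 14.7% of all genes in either direction. The median log2 fold change was 0.15 for the other phosphatases and inhibitors, 0.49 for the other targets, 0.60 for the EGFR family, 0.13 for the cascade and -0.37 for the other receptors.

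Against Glul, 1 of the 17 other targets and 2 of the 12 other receptors passed the adjusted threshold as negative, where 1.30% of all genes did, and 0 genes of these 5 lists passed as positive. Epha4, an ephrin receptor and ERK target, had r = -0.89 (permutation adjusted p = 0.0171) and rho = -0.70 (permutation adjusted p = 0.295), on 0 to 170 counts. The fibroblast growth factor receptors Fgfr4 and Fgfr1 had r = -0.86 (permutation adjusted p = 0.0322) and -0.82 (permutation adjusted p = 0.0481), with rho of -0.81 and -0.85 (permutation adjusted p = 0.162 and 0.127). Fgfr4, the receptor of the bile-acid-regulating hormone FGF15, had 21.3, 35.3 and 139 CPM in KO (lowest, median and highest), against 53.1, 69.3 and 103 CPM in WT. Of the 12 other receptor tyrosine kinases, 11 had a negative r with Glul (51.0% of all genes did), with a median of -0.36, while the median r was 0.0780 for the other phosphatases and inhibitors, 0.10 for the other targets, 0.0809 for the EGFR family and 0.0859 for the cascade.

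The genes most like the members' mean were sought by r with the mean of the members' levels, each set to unit SD, over 12 libraries. Since the members split among themselves, a gene with a high r here need not resemble any single member. The 8 with the highest r were Fam160a2 (0.97), BC048546 (0.93), Msmo1 and Tram1 (0.91 each), Fmnl2 and Kat2b (0.90 each), and Slc17a9 and Cyp51 (0.89 each), given as a description with no test. Msmo1 and Cyp51 are enzymes of cholesterol synthesis. The r of these 8 genes with Glul lay between 0.12 and 0.51.

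Markers of other cell types moved with some of these results. The 6 cholangiocyte markers Krt19, Krt7, Epcam, Sox9, Spp1 and Cftr summed to 60.6, 25.7 and 49.3 CPM in KO replicates 1 to 3 and to 452 to 4313 CPM in the other 4 KO libraries, against 153 to 972 CPM in WT. The sum was thus lowest in the libraries with high Glul, high Phlda1 and low Hbegf, Spp1 made up most of its highest value, with 4254 CPM, and Krt7 and Cftr were at 0 in at least 1 KO library. Endothelial markers summed to 140 to 654 CPM in KO and 345 to 549 CPM in WT, macrophage markers to 151 to 1830 CPM in KO and 378 to 1124 CPM in WT, and neutrophil markers to 25.2 to 1574 CPM in KO and 20.5 to 46.3 CPM in WT. All 7 neutrophil markers had an unadjusted p under 0.05 in edgeR with KO higher (7.25% of all genes), and 0 passed after adjustment. Their sum was 1574, 373 and 236 CPM in KO replicates 3, 6 and 4. In the other KO libraries it was 25.2 to 38.2 CPM, within the WT range. At the same unadjusted threshold 3 endothelial, 1 macrophage and 1 hepatocyte marker were lower in KO (7.44% of all genes). Stellate and matrix markers summed to 145 to 507 CPM in KO and 176 to 637 CPM in WT, T and NK cell markers to 3.43 to 26.1 CPM in KO and 7.59 to 15.8 CPM in WT, and markers of proliferating cells to 17.5 to 115 CPM in KO and 10.2 to 54.9 CPM in WT. KO replicate 6, where Dusp4 and Spred1 were lowest within KO, had the highest macrophage sum, 1830 CPM, and the highest endothelial sum, 654 CPM. Over all libraries, r of the log2 macrophage sum with the members ran from -0.83 (Dusp4) to 0.42 (Egfr). For the endothelial sum it ran from -0.74 (Spred1) to 0.31 (Spry2). For the cholangiocyte sum it ran from -0.80 (Phlda1) to 0.74 (Hbegf), with -0.81 for Glul. These r are a description with no test. The part of these cells in the levels of the members was not tested.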

How the data were processed

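The table holds raw read counts per gene symbol deposited by the authors, 1 column of whole numbers per library. HISAT2 and the mm10 build are named in the submitters' processing notes. Which program counted the reads, with which strand setting and gene models, is not given in the sources used here. Columns were matched to samples by title and put in KO or WT by the genotype label, and replicates were numbered in accession order. The title of KO replicate 7, which had the highest Etv4 and Hbegf, begins with KP and not KO, while its genotype label is Pck1-null; without it the log2 fold change was 0.81 for Etv4 and -0.19 for Hbegf. Separate animals are not stated for the libraries, and p-values therefore cover only the spread among them, which may be technical. Replicates all differed by more than sampling noise (smallest chi-square per degree of freedom 76.7). The members and lists were chosen with earlier results of these data known.

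Genes were kept by filterByExpr (minimum count 10, minimum total 15; 99.9% of counts) and tested with edgeR 4.0.16 in R 4.3.3 (TMM, robust quasi-likelihood, Benjamini-Hochberg at 0.05 over all genes). Standard errors were computed as the absolute log2 fold change divided by the root of the F statistic. A prior count of 2 was added for log2 CPM. Differences of mean log2 CPM were tested by exact two-sided permutation over 792 regroupings. Correlations with Glul were tested by two-sided permutation with 100000 resamples (all orders for under 10 libraries), adjusted over 14665 genes; the smallest p is 1e-05. Alternatives were DESeq2 1.42.0, limma 3.58.1, other scalings and filters, depth and Xist terms, other axes and sets of libraries, and each library left out; subtracting depth class means and leaving out the 3 or 4 libraries of highest Glul were added after seeing the data. Fits and correlations were tested on simulated data. Named genes are the members, Glul, Pck1, up to 4 genes per list by p and up to 4 by r with Glul, and the 8 genes most like the members' mean. Gene positions and promoters are from RefSeq (GRCm38.p6) and exon lengths and overlaps from GENCODE M21 on the same assembly. A marker gene of the lists is not reported here and was left out of the sums.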

Additional observations from a re-analysis of the deposited data

Results flagged for a closer look

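Of 22 groups of levels checked (10 members and Glul in each genotype), 3 held a library far from the others, where chance alone would flag about 1 group in 20. Dusp4 in KO replicate 6 was at 2.45 log2 CPM, below the other 6 KO libraries. Phlda1 in WT replicate 1 was at 6.18 log2 CPM, above the other 4 WT libraries. Egfr in WT replicate 4 was at 6.15 log2 CPM, below the other 4 WT libraries.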

How the results depend on the processing

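No paired analysis was possible because the groups share no replicate numbers in the labels. The count of members called between genotypes, 0, was 1 under limma-voom with sample weights and 0 under the other alternatives, and with 1 library left out it was 0. The count of all genes called, 0 in edgeR, was 489 with DESeq2, 2138 with limma-voom, 3 with depth class as a term, and 1 each with upper quartile scaling, no filter and a filter of 1 CPM in 5 libraries; with 1 library left out it lay between 0 and 65, the highest without KO replicate 6. By exact permutation per member the count under 0.05, 0 over all libraries, lay between 0 and 2 with 1 library left out: Spred1 without KO replicate 6 (p = 0.0498) or WT replicate 1 (p = 0.0212), Etv5 without KO replicate 7 (p = 0.0498), WT replicate 1 (p = 0.0303) or WT replicate 3 (p = 0.0424), and Spry4 without WT replicate 2 (p = 0.0303).

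For the relation with Glul, the count of members called, 1, was 0 with Spearman's rho and without the 2 libraries farthest from the Glul median. The count of all genes called, 417 in both directions, was 30 with rho, 0 without those 2 libraries, 228 with no filter, 866 with genotype means subtracted and 147 with depth class means subtracted, and lay between 72 (without KO replicate 1) and 444 with 1 library left out; without KO replicates 2, 3, 5 and WT replicate 5 it was 97, 124, 260 and 243. Members with a negative r, 4 over all libraries, numbered 2 to 5 with 1 library left out, and 7 without the 4 libraries of highest Glul. In the count model with a Glul term, members called numbered 2, and 1 with RLE scaling, depth class or Xist class, and all genes called numbered 104 with depth class against 740 without. Within KO or the shallower libraries alone no member passed after adjustment, where the smallest unadjusted p possible is 0.000198. The permutation adjusted p within KO and within the shallower libraries was 0.125 and 0.279 for Phlda1. It was 0.159 and 0.433 for Dusp6, and 0.178 and 0.444 for Hbegf.

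Some signs turned, none of them of a called value. Between genotypes, Hbegf was -0.0375 with limma-voom, -0.00597 with depth class as a term and -0.19 to 0.35 with 1 library left out, Dusp6 was -0.0412 and Egfr 0.13 with Xist class, and Dusp6 was -0.10 to 0.44 with 1 library left out. The difference of mean log2 CPM with 1 library left out ran from -0.18 to 0.33 for Dusp6, -0.57 to 0.0861 for Egfr and -0.38 to 0.14 for Hbegf, and was -0.55 for Etv4 among shallower and -0.29 for Phlda1 among deeper libraries, against 0.76 and 0.68 over all. The slope on Glul with depth class as a term was -0.0509 for Dusp4 and 0.00552 for Egfr. The r with Glul was 0.13 for Spry4 and -0.0683 for Etv5 without the 2 farthest libraries, -0.0380 for Spry2 in the shallower libraries, -0.28 for Etv5 and 0.0717 for Egfr without the 3 libraries of highest Glul, and -0.24 for Dusp4, -0.31 for Spred1 and -0.68 for Etv5 without the 4. With 1 library left out it ran from -0.0704 to 0.53 for Spry2, -0.37 to 0.0578 for Spry4 and -0.38 to 0.13 for Egfr. The cause of these changes was not tested. Counts of 2 to 268 for Etv4 and 28 to 270 for Spry2 limit what their values can show.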
